A study of Rattus norvegicus with 42 samples.

Results

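The hippocampal transcriptomes of rat pups given phenobarbital (PB) were compared directly with those of pups given levetiracetam (LEV), with no vehicle animals in the test. The animals were chosen by their treatment label, which gave 28 of the 42 sequenced animals, 14 PB and 14 LEV. All were male Sprague Dawley pups that received a single intraperitoneal injection on postnatal day 7, either 75 mg/kg of PB or 200 mg/kg of LEV, and went back to the dam. Hippocampi were dissected 72 h later, on postnatal day 10, after an overdose of pentobarbital, itself a barbiturate, and perfusion with saline buffer, a step that every group shared. Each litter gave 1 animal per group, so the replicates are separate animals. Treatments were balanced within litter, so PB and LEV animals include littermates. The sample labels do not name the litters, and the main test has no litter term. The sample codes come in 2 forms, which split every group into animals 1 to 6 and animals 7 to 14. Each form is called a series below. The animals came in 2 orders, but the labels do not say which animals belong to which, so the series is only a form of code. The doses differ and no matched dose of the other drug was given, so every difference below is one between these treatments as given. Saline (VEH) animals are shown for level only, 13 of them, without the animal that the study excluded. VEH animal 1 lacked transcripts of the Y chromosome, with 0.819 normalized counts of Eif2s3y and 0 of Ddx3y against at least 726 and 516 in the other 40 animals, so it goes against the label of a male pup.

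PB is a barbiturate that binds to GABA-A receptors, the chloride channels opened by the inhibitory transmitter GABA, and lengthens their opening. LEV binds SV2A, a membrane protein of synaptic vesicles, and does not act on GABA-A receptors in the way that barbiturates do. In the first weeks after birth the rat hippocampus is still forming synapses, its interneurons are maturing, its astrocytes multiply and its first myelin appears, so transcripts of these steps change quickly from day to day at this age.

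The values are estimated counts per RefSeq transcript. Totals ran from 9586785 to 13140891 counts in PB animals and from 10112029 to 12482916 in LEV animals and did not differ beyond the spread between animals (two-sided permutation test, 100000 resamples, p = 0.990). Markers of the dissected tissue were present in every animal, with normalized counts of at least 616 for Prox1 (dentate granule cells), 2759 for Neurod6 and 10014 for Slc17a7 (excitatory neurons). Transcripts of neighbouring tissue varied between animals. Ttr, the main transcript of choroid plexus, ran from 26.5 to 80356 normalized counts in PB and from 20.8 to 56137 in LEV animals, and 0 of the 17 tested choroid plexus transcripts and 0 of the 10 tested ependymal transcripts had even an unadjusted p under 0.05 in edgeR's test of the drugs. Ribosomal RNA took 0.768% to 12.2% of the counts in PB animals and 0.695% to 9.64% in LEV animals (permutation p = 0.321), and the largest share was that of PB animal 2, which also lay farthest from its group centre. Without PB animal 2, 64 transcripts were differentially expressed in place of the 66 described next, 47 of them among the 66. Omission of other single animals moved this number more, to 31 without PB animal 7, 41 without LEV animal 2 and 43 without either PB animal 11 or LEV animal 12.

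PB and LEV animals differed in 66 transcripts of 66 genes, and no transcript separated the drugs completely. Differential expression here means an adjusted p below 0.05 in edgeR's quasi-likelihood test, with the series in the model, together with a log2 difference of 0.32 or more in size. Of 12886 transcripts tested, 34 were above these limits in PB relative to LEV animals and 32 below. These are 0.512% of all tested transcripts, 0.264% in the higher and 0.248% in the lower direction. Lower after PB were transcripts of interneurons and neuropeptides (Sst, Pvalb, Tac3, Pdyn), of other neuronal functions (Nap1l5, Rgs14, Ndrg4, Lynx1) and of myelin (Opalin, Mobp). Higher after PB were transcripts of astrocytes and extracellular matrix (Gfap, Tnc, Vcan), of macrophages and microglia (Adgre1, Cd4) and of dividing cells (Aspm, Cenpf and 8 others). Astrocytes and microglia also had a transcript each that was lower, Slc7a10 and Plek. The differences were small: 16 of the 66 reached 1.5-fold and 4 reached 2-fold. Without the fold limit 567 transcripts (4.40%) were past the adjusted p in edgeR, of which 211 (1.64%) had the higher level after PB and 356 (2.76%) the lower. At an unadjusted p under 0.05 there were 2598 (20.2%), and irrespective of any test 50.5% of the transcripts had the higher value after PB. For 0 of the 12886 transcripts did the 14 PB and the 14 LEV animals not overlap at all. A test against the fold limit itself, edgeR's glmTreat, called 0 transcripts, with 69 at an unadjusted p under 0.05.

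The strongest differences in neurons were reductions after PB. Sst encodes somatostatin, the peptide of dendrite-targeting interneurons (chromosome 11 of rn6, 80358172 to 80359450). Its normalized count in PB animals had a lowest value of 905, a median of 1465 and a highest value of 2316, against 1359, 1988 and 2991 in LEV animals. The level also differed between the series, with LEV medians of 2518 in animals 1 to 6 and 1832 in animals 7 to 14. Within animals 1 to 6 the drugs did not overlap, as the highest PB animal had 2316 and the lowest LEV animal 2336. Such separation was found for 1.65% of all tested transcripts in animals 1 to 6 and for 0.334% in animals 7 to 14, and it is given below as a description. Sst was lower after PB by 0.46 on the log2 scale (standard error 0.07, 1.37-fold, edgeR adjusted p = 0.000441), with each of the 14 PB animals under the mean of the LEV animals of its series, and VEH animals had a median of 2212.
Pvalb encodes parvalbumin, the calcium-binding protein of fast-spiking interneurons (chromosome 7, 119429018 to 119441488). It had 9.54, 29.1 and 145 normalized counts (lowest, median, highest) in PB and 46.2, 64.5 and 115 in LEV animals. The highest value of all was that of PB animal 5, while the other PB animals had at most 57.8. In animals 7 to 14 every PB animal, at no more than 37.7, was below every LEV animal. The log2 difference was -0.93 (standard error 0.23, 1.90-fold, edgeR adjusted p = 0.0209).
Tac3, the precursor of neurokinin B, had 33.4, 57.5 and 95.3 in PB and 63.3, 83.2 and 128 in LEV animals, a log2 difference of -0.56 (standard error 0.13, edgeR adjusted p = 0.0142). Pdyn, the precursor of dynorphin, had 102, 181 and 234 in PB and 182, 220 and 269 in LEV animals. Its log2 difference was -0.34 (standard error 0.10, edgeR adjusted p = 0.0395), with -0.14 for animals 1 to 6 against -0.50 for animals 7 to 14, and 15 of 28 refits without a single animal kept the call. Sst, Pvalb and Tac3 kept it in all 28. In RNA of a whole hippocampus, fewer cells of a type and less RNA per cell cannot be told apart.

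**Figure D1:**
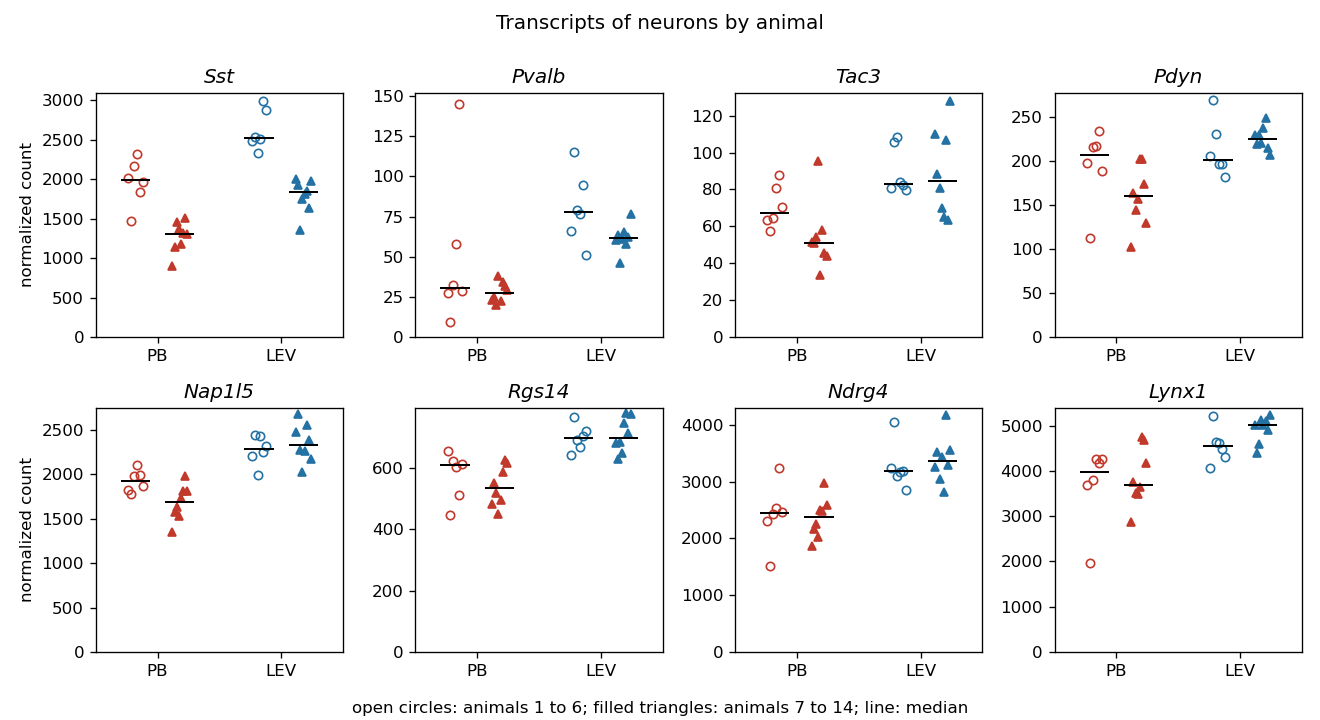
Normalized count of 8 neuronal transcripts in each animal (vertical axes, each from 0), with PB in red and LEV in blue, open circles for animals 1 to 6, filled triangles for animals 7 to 14 and lines at the medians of each series. PB medians are below LEV medians in both series except for Pdyn in animals 1 to 6, and the PB animal far above the others for Pvalb is animal 5, at 145.

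Most peptide genes had lower values after PB. Of 21 tested transcripts on a list of neuropeptide precursors, 20 had a lower value after PB, with a median log2 difference of -0.18 against 0.0012 over all tested transcripts, and 3 were differentially expressed (Sst, Tac3 and Pdyn), 14.3% against 0.512% of all transcripts. The list's other members with an edgeR adjusted p under 0.05 were Chgb, a granin of secretory vesicles (-0.20, standard error 0.05, adjusted p = 0.0264), and Cck, cholecystokinin (-0.19, standard error 0.05, adjusted p = 0.0399). Both are under the fold limit. Adcyap1, the precursor of PACAP, was the single member with a higher value (0.07, standard error 0.10). Npy differed by -0.18 (edgeR adjusted p = 0.208) and Vip by -0.15 (edgeR adjusted p = 0.460), and neither passed.
On a list of interneuron markers 21 of 27 transcripts had a lower value after PB (median -0.12). Differentially expressed were 3 (Sst, Pvalb and Chrna2), 11.1% against 0.512% of all transcripts. Against 2.76% of all transcripts in this direction, 10 (37.0%) had an edgeR adjusted p under 0.05, all of them lower. Among these were genes of GABA synthesis and loading. Slc32a1, the vesicular GABA transporter, was lower by 0.29 (standard error 0.06, edgeR adjusted p = 0.00975). Gad1, which makes GABA, had 1402, 1672 and 2027 normalized counts in PB and 1757, 1959 and 2252 in LEV animals, a log2 difference of -0.18 (standard error 0.05, edgeR adjusted p = 0.0381). Gad2, the other GABA-making enzyme, differed by -0.04 (standard error 0.07), and the interneuron transcription factors Lhx6 and Dlx1 by -0.11 and -0.14, with edgeR adjusted p values of 0.161 and 0.130.
The study took its list of GABA neuron transcripts from a published source and added Sst. Of its 88 transcripts, 71 had a lower value after PB (median -0.11), and 24 (27.3%) had an edgeR adjusted p under 0.05. All 24 were lower, against 2.76% of all transcripts in this direction. Differentially expressed were 4 (Sst, Pvalb, Tac3 and Entpd3), 4.55% against 0.512% of all transcripts. Entpd3, an enzyme that degrades extracellular nucleotides, had a median of 93.1 in PB and 122 in LEV animals and differed by -0.43 (standard error 0.08, edgeR adjusted p = 0.00410).

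Of the molecular targets of the drugs, Sv2a was slightly lower after PB and the GABA-A receptor subunits did not pass the test. Of 14 tested GABA-A receptor subunit transcripts, 0 were differentially expressed and 0 had an edgeR adjusted p under 0.05, with 4 at an unadjusted p under 0.05, and 9 had a higher value after PB (median 0.038).
Sv2a, the binding site of LEV, had 5158, 5861 and 6318 in PB and 5542, 6496 and 6967 in LEV animals. It was lower after PB by 0.14 on the log2 scale (standard error 0.03, 1.10-fold, edgeR adjusted p = 0.0247), which is under the fold limit. The VEH median was 6363. Of 15 transcripts of the SV2 family and its vesicle partners, 14 had a lower value after PB (median -0.16). Among the 15, 7 (46.7%) had an edgeR adjusted p under 0.05, all lower, against 2.76% of all transcripts in this direction. None was differentially expressed. The synaptic vesicle proteins synaptophysin (Syp, -0.23, standard error 0.04, edgeR adjusted p = 0.000803) and synapsin 1 (Syn1, -0.28, standard error 0.06, edgeR adjusted p = 0.0117) differed most clearly. Sv2c had a value of 0.04 (standard error 0.12).

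Other neuronal transcripts were lower after PB, among them Nap1l5, which had the smallest adjusted p of the 66. Nap1l5, a nucleosome assembly protein expressed from the paternal allele (chromosome 4, 89149317 to 89151185), had 1345, 1814 and 2107 normalized counts in PB and 1996, 2297 and 2682 in LEV animals. In animals 7 to 14 the drugs did not overlap. It was lower after PB by 0.38 (standard error 0.05, 1.30-fold, edgeR adjusted p = 0.000167). Nap1l5 lies within Herc3, and the sources do not state that strand was used in counting, so reads of the pair may be mixed. Herc3 itself differed by -0.11 (edgeR adjusted p = 0.0419).
Rgs14, a regulator of G-protein signalling that marks hippocampal area CA2 (chromosome 17, 9777925 to 9792008), had 446, 569 and 656 in PB and 630, 697 and 780 in LEV animals, and the PB and LEV animals 7 to 14 did not overlap. The log2 difference was -0.34 (standard error 0.05, edgeR adjusted p = 0.000949). The call held in 26 of 28 refits without a single animal. Of 22 tested transcripts that mark fields of excitatory neurons, 16 had a lower value after PB (median -0.09). Differentially expressed were 2 (9.09% against 0.512% of all transcripts), Rgs14 lower and Zbtb20 higher. Nrgn, neurogranin of excitatory dendrites, was lower by 0.27 (standard error 0.06, edgeR adjusted p = 0.0114). Zbtb20, a transcription factor of hippocampal identity that astrocytes also express, was higher after PB by 0.46 (standard error 0.12, edgeR adjusted p = 0.0257), with medians of 364 in PB, 267 in LEV and 354 in VEH animals.
Lynx1, which binds nicotinic acetylcholine receptors and damps their activity, had 1958, 3771 and 4754 in PB and 4064, 4774 and 5233 in LEV animals, with the lowest value in PB animal 2. It differed by -0.33 (standard error 0.08, edgeR adjusted p = 0.0197) and kept the call in 23 of 28 refits without a single animal, with -0.28 in the refit without PB animal 2. Chrna2, a nicotinic receptor subunit, differed by -0.44 (standard error 0.12, edgeR adjusted p = 0.0289), with -0.74 in animals 1 to 6 and -0.22 in animals 7 to 14. These were the 2 differentially expressed members (5.56% against 0.512% of all transcripts) among 36 tested transcripts of neuroactive receptors, whose median was -0.036. Of 24 immediate early gene transcripts 0 passed both limits, and 15 had a lower value after PB (median -0.12). At an unadjusted p under 0.05 in edgeR, 7 were lower and 2 higher, against 10.7% and 9.45% of all tested transcripts. An edgeR adjusted p under 0.05 was found for 2 (8.33% against 4.40% of all transcripts). Of these, Jun was lower (-0.18, adjusted p = 0.0263) and Egr3 higher (0.20, adjusted p = 0.0386) after PB. Npas4 had a value of -0.34 (adjusted p = 0.148).

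Several calls concern 1 transcript of a gene that has others. Counts of such transcripts rest on how the authors' algorithm divided shared reads, and they are uncertain. Of the 66 genes, 55 were also differentially expressed when counts were summed per gene symbol. Ndrg4, a protein of neuronal differentiation (chromosome 19, 9766439 to 9777466), had 1522, 2452 and 3245 in PB and 2812, 3250 and 4168 in LEV animals for transcript NM_031967, a log2 difference of -0.48 (standard error 0.08, edgeR adjusted p = 0.000954). NM_001271095, to which more counts were assigned, differed by -0.26 (standard error 0.05, edgeR adjusted p = 0.00227), and the sum over transcripts by -0.26, under the fold limit. Aldoa, aldolase A of glycolysis, had a difference of -0.39 for NM_001271536 (edgeR adjusted p = 0.00491) and of -0.19 for the main transcript NM_012495 (edgeR adjusted p = 0.0197).
Gria3, an AMPA receptor subunit for glutamate, gave medians of 250 in PB and 355 in LEV animals for NM_001112742 (-0.50, standard error 0.11, edgeR adjusted p = 0.0128), while NM_032990, with a mean of 1905 in PB and 1977 in LEV animals, differed by -0.05 (edgeR adjusted p = 0.578). For Gria3 the VEH median was 271, between the PB and LEV medians and nearer PB. Smndc1, a splicing factor, had the largest rise, from 1.87, 7.44 and 31.4 in LEV to 1.05, 25.2 and 129 in PB animals for NM_001025400. Its log2 difference was 1.81 (standard error 0.48, edgeR adjusted p = 0.0302), but PB animals covered the whole range of LEV animals and the main transcript NM_001035234 had a value of -0.14 (edgeR adjusted p = 0.430). Ercc8, a repair factor, followed the same pattern: the non-coding NR_073139 differed by 0.72 (edgeR adjusted p = 0.0274) and NM_001107650 by 0.04 (edgeR adjusted p = 0.723). Ptprr, a tyrosine phosphatase, had the third largest fall (-1.24 for NM_001113390, standard error 0.36, edgeR adjusted p = 0.0429, medians 11.0 in PB, 46.9 in LEV and 28.4 in VEH animals) and a value of 0.14 for NM_053594 (edgeR adjusted p = 0.182). The Ptprr call held in 11 of 28 refits without a single animal. For Gria3, Smndc1, Ercc8 and Ptprr the sum over transcripts was not differentially expressed.
Vcan and Grin1 belong here too. NM_001170558 of Vcan, the matrix proteoglycan versican, was higher by 0.51 (standard error 0.14, edgeR adjusted p = 0.0359) and NM_001170560 by 0.31 (standard error 0.07, edgeR adjusted p = 0.0175), while NM_001170559 had a value of -0.50 (edgeR adjusted p = 0.342). NM_001270603 of Grin1, the obligatory NMDA receptor subunit, differed by -0.33 (standard error 0.09, edgeR adjusted p = 0.0330) and NM_017010, with the most counts, by -0.15 (edgeR adjusted p = 0.155). Gria3 and Grin1 were the 2 differentially expressed members (5.26% against 0.512% of all transcripts) among 38 glutamate receptor subunit transcripts, with a median of -0.019. The call of Grin1 held in 15 of 28 refits without a single animal. Summed over transcripts, Grin1 differed by -0.15 (edgeR adjusted p = 0.0748) and Vcan by 0.25 (edgeR adjusted p = 0.0223), and neither sum was differentially expressed.

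Myelin transcripts gave the 2 largest differences in the direction of lower levels in PB than in LEV animals. Opalin, a membrane protein of mature oligodendrocytes (chromosome 1, 260324028 to 260341678), had 0.954, 3.91 and 26.3 normalized counts in PB and 8.76, 24.4 and 46.4 in LEV animals. In the PB group 4 animals had at most 2.09 normalized counts, and 3 animals (4, 5 and 12) lay between 17.6 and 26.3, within the range of LEV animals. The log2 difference was -1.83 (standard error 0.38, 3.55-fold, edgeR adjusted p = 0.00809), with -1.19 in animals 1 to 6 and -2.42 in animals 7 to 14, and the VEH median was 12.5, between the drugs.
Mobp, a protein of compact myelin (chromosome 8, 128824508 to 128850361), had 9.68, 63.7 and 497 in PB and 166, 319 and 532 in LEV animals, and again PB animals 4, 5 and 12 were the highest of their group. The log2 difference was -1.41 (standard error 0.39, 2.66-fold, edgeR adjusted p = 0.0330), and the call held in 24 of 28 refits without a single animal. The VEH median was 209, between the drugs.
Of 23 tested transcripts of mature oligodendrocytes and myelin, 3 were differentially expressed (Opalin and Mobp among them), 13.0% against 0.512% of all transcripts. A lower value after PB was found for 17 of the 23, and the median was -0.23. That median was -0.08 for animals 1 to 6 against -0.29 for animals 7 to 14. The summed level of the list had medians of 18769 normalized counts in PB, 20550 in LEV and 16565 in VEH animals, so VEH was below both drugs. Large values that did not pass were those of Mag (-0.60, standard error 0.19, edgeR adjusted p = 0.0620) and of the Mbp transcript NM_017026 (-0.65, standard error 0.20, edgeR adjusted p = 0.0624). At an unadjusted p under 0.05 in edgeR, 8 of the 23 were lower and 4 higher, against 10.7% and 9.45% of all tested transcripts. Enpp6, a member of this list that marks newly forming oligodendrocytes, was 1 of the 4 (0.47, edgeR adjusted p = 0.0827). Among 14 transcripts of oligodendrocyte precursors the median was 0.0043 and 0 passed both limits. Olig2, a transcription factor of the whole lineage, had 887, 1049 and 1158 in PB and 942, 1079 and 1197 in LEV animals (-0.06, standard error 0.04, edgeR adjusted p = 0.460), and Pdgfra, the receptor of precursors, differed by 0.01 (standard error 0.05). On the study's oligodendrocyte list, 3 of 104 tested transcripts passed both limits (Opalin and Mobp lower, Vcan higher), 2.88% against 0.512% of all transcripts.

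Astrocyte transcripts moved in both directions. Gfap, the intermediate filament of astrocytes (chromosome 10, 90990762 to 90999436), had 7387, 9619 and 12441 normalized counts in PB and 6421, 7549 and 8263 in LEV animals, with a VEH median of 7585. All 14 PB animals were above the mean of the LEV animals of their series, and the ranges overlapped between 7387 and 8263. The log2 difference was 0.36 (standard error 0.06, 1.29-fold, edgeR adjusted p = 0.000954).
Tnc, tenascin C, a matrix glycoprotein made by immature and reactive astrocytes (chromosome 5, 79790275 to 79849866), had 1154, 1487 and 2414 in PB and 945, 1212 and 1571 in LEV animals. It did not overlap between the drugs in animals 1 to 6, with 1154 to 1433 in PB and 945 to 1064 in LEV animals. VEH animals 1 to 6 ran from 1154 to 1431, at the level of the PB animals of that series. Over both series the VEH median was 1377, between the drugs. The log2 difference was 0.40 (standard error 0.06, 1.32-fold, edgeR adjusted p = 0.000199), close to equal in animals 1 to 6 (0.37) and 7 to 14 (0.43). Tnc was the only transcript that was differentially expressed in each series tested alone.
Slc7a10, an exchanger of serine and glycine on the study's astrocyte list (chromosome 1, 91433030 to 91448567), was lower after PB, with 222, 305 and 391 against 341, 383 and 457 in LEV animals (-0.33, standard error 0.05, edgeR adjusted p = 0.000803). It overlaps Lrp3, which differed by -0.02. Aldoc, the aldolase of astrocytes, was lower by 0.14 (edgeR adjusted p = 0.0448), under the fold limit. Vim, another intermediate filament, had a value of 0.17 (edgeR adjusted p = 0.0804), and Gja1, connexin 43, of 0.04 (edgeR adjusted p = 0.734). Of 38 tested transcripts on a list of astrocyte identity and reactivity 23 had a higher value after PB (median 0.021). Differentially expressed were 2 (5.26% against 0.512% of all transcripts), Gfap higher and Slc7a10 lower. On the study's astrocyte list of 419 tested transcripts, 5 were higher (Gfap, Tnc, Zbtb20, Slc7a2 and Pla2g7) and 1 lower (Slc7a10), 1.43% against 0.512% of all transcripts. Pla2g7 kept its call in 9 of 28 refits without a single animal. Vegfa, the vascular growth factor, was listed with 12 transcripts tested here, several with the same counts. Of the 12, 0 passed the edgeR test or reached an unadjusted p under 0.05, with log2 differences between -0.16 and 0.38. The study reported NM_001287113 and NR_105011 of Vegfa as increased after PB against vehicle. NR_105011 is among the 12, while NM_001287113 and NM_001287114 were removed by the low-count filter and not tested. All 13 tested endothelial transcripts had a lower value after PB (median -0.11). Cldn5, claudin 5 of the blood-brain barrier, was the only one of them with an edgeR adjusted p under 0.05 (-0.22, standard error 0.06, adjusted p = 0.0244). That is 7.69% against 2.76% of all transcripts in this direction. An unadjusted p under 0.05 was found for 4 of the 13, against 10.7% of all transcripts in this direction.

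Transcripts of macrophages and microglia were mixed. Adgre1, the macrophage receptor F4/80 (chromosome 9, 9431888 to 9585853), had 70.0, 140 and 214 in PB and 45.6, 88.3 and 147 in LEV animals. It was higher after PB by 0.60 (standard error 0.13, 1.51-fold, edgeR adjusted p = 0.0114). Cd4, a co-receptor that rat macrophages and microglia also carry, had 35.7, 72.7 and 98.3 in PB and 16.2, 47.5 and 61.6 in LEV animals (0.60, standard error 0.15, edgeR adjusted p = 0.0212). Ifi47, a GTPase induced by interferon, had 20.04, 34.8 and 52.0 in PB and 12.4, 21.4 and 42.5 in LEV animals (0.59, standard error 0.14, edgeR adjusted p = 0.0159). These rises stand beside a fall of Plek, pleckstrin of blood-derived cells, with medians of 18.9 in PB, 26.8 in LEV and 31.2 in VEH animals (-0.51, standard error 0.13, edgeR adjusted p = 0.0263).
Cd68, the lysosomal marker of phagocytes, had 14.5, 29.4 and 52.5 in PB and 13.1, 19.9 and 38.3 in LEV animals, and a median of 14.3 in VEH animals. Its log2 difference of 0.50 (standard error 0.17, edgeR adjusted p = 0.0747) did not pass. Aif1, which encodes IBA1, had 120, 162 and 194 in PB and 127, 186 and 205 in LEV animals (-0.19, standard error 0.08, edgeR adjusted p = 0.163). Of 26 tested transcripts of microglial identity and activation 17 had a higher value after PB (median 0.072). Differentially expressed were 2 (7.69% against 0.512% of all transcripts), Cd4 higher and Plek lower. The identity genes Cx3cr1 (0.01), P2ry12 (0.07) and Csf1r (0.07) had values near 0. On the study's microglia list 1 of 248 tested transcripts passed (Cd4), 0.403% against 0.512% of all transcripts. A higher value after PB was found for 154 of the 248 (median 0.048). An edgeR adjusted p under 0.05 was found for 7 (2.82%), all higher, against 1.64% of all transcripts in this direction.

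**Figure D2:**
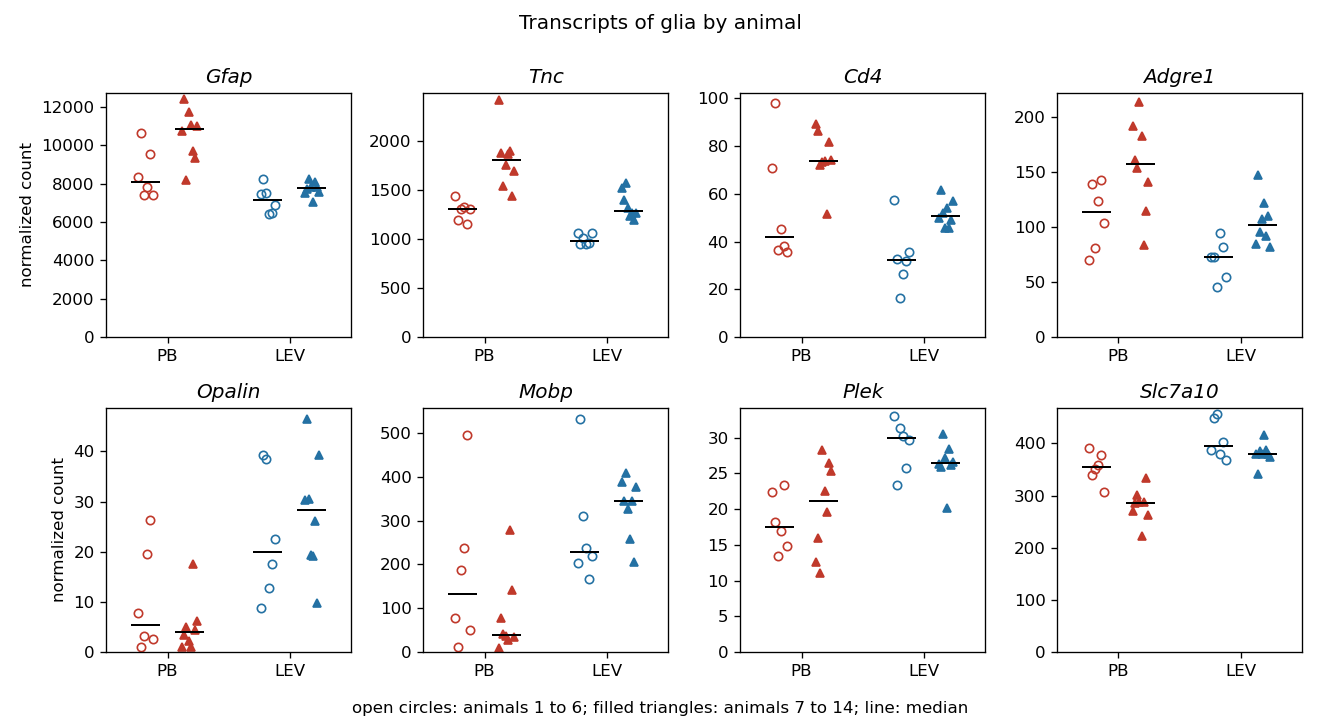
Normalized count of 8 glial transcripts in each animal (vertical axes, each from 0), with PB in red and LEV in blue, open circles for animals 1 to 6, filled triangles for animals 7 to 14 and lines at the medians of each series. Gfap, Tnc, Cd4 and Adgre1 have higher and Opalin, Mobp, Plek and Slc7a10 lower medians after PB in both series, and for Opalin and Mobp a few PB animals lie at the level of the LEV animals.

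Genes of cell division were higher after PB. Among the 34 higher transcripts, 10 encode proteins of the mitotic spindle, centromere, cell cycle control or DNA repair: Aspm, Cenpf, Troap, E2f7, Mybl2, Hjurp, Ska2, Nusap1, Bub1b and Polq. This group was put together after the values were seen. Aspm, a spindle pole protein that keeps neural progenitors dividing (chromosome 13, 56546021 to 56591794), had 162, 226 and 324 in PB and 149, 164 and 241 in LEV animals. All 14 PB animals exceeded the mean of the LEV animals of their series, and the log2 difference was 0.41 (standard error 0.08, 1.33-fold, edgeR adjusted p = 0.00261). Cenpf, a kinetochore protein, had 114, 191 and 337 in PB and 103, 163 and 211 in LEV animals (0.40, standard error 0.10, edgeR adjusted p = 0.0210). E2f7, a repressor of cell cycle genes, had 13.4, 22.3 and 42.2 in PB and 9.82, 15.7 and 22.6 in LEV animals (0.59, standard error 0.16, edgeR adjusted p = 0.0313). The other 7 had log2 differences between 0.32 and 0.50. Aspm, Cenpf and Troap kept the call in all 28 refits without a single animal, and Bub1b and Polq in 6 each.
A list of 20 proliferation genes, which shares only Cenpf with these 10, had 20 of 20 members with a higher value after PB and a median of 0.16. Of them 1 was differentially expressed (Cenpf), 5% against 0.512% of all transcripts. An unadjusted p under 0.05 was found for 8, against 9.45% of all tested transcripts in this direction. Tyms, which makes thymidylate for DNA, was nearest to the limit (0.28, standard error 0.09, edgeR adjusted p = 0.0543), followed by Top2a, topoisomerase 2 of dividing cells (0.28, standard error 0.10, edgeR adjusted p = 0.1002). Mki67, the usual marker of cycling cells, had 0.13 (standard error 0.07, edgeR adjusted p = 0.314). The list median was 0.07 for animals 1 to 6 against 0.22 for animals 7 to 14. The 20 values come from the same animals and are not independent of each other.
Some genes of immature neurons were slightly higher after PB. Dcx, a microtubule protein of migrating neurons, was higher by 0.29 (standard error 0.07, edgeR adjusted p = 0.0166), Sox11, a transcription factor of young neurons, by 0.28 (standard error 0.07, edgeR adjusted p = 0.0224) and Dpysl3 by 0.20 (standard error 0.05, edgeR adjusted p = 0.0358), all under the fold limit. These 3 were 27.3% of the 11 tested members of a list of immature neuron genes, against 1.64% of all transcripts in this direction. Of the 11 members 9 had a higher value (median 0.10), while Tubb3 and Stmn2, which mature neurons also express, had -0.11 and -0.07. St8sia2, which adds polysialic acid to the adhesion molecule NCAM in the immature brain, was higher by 0.50 (standard error 0.12, edgeR adjusted p = 0.0182), with medians of 152 in PB and 111 in LEV animals. Trim67, a ubiquitin ligase of developing axons, had 222, 325 and 440 in PB and 199, 240 and 287 in LEV animals (0.48, standard error 0.08, edgeR adjusted p = 0.000963). Fnbp1l, which links membranes to actin, differed by 0.32 (standard error 0.07, edgeR adjusted p = 0.0142), just over the fold limit. H19, an imprinted non-coding RNA that is silenced after birth, had medians of 48.2 in PB and 31.4 in LEV animals and differed by 0.69 (standard error 0.17, 1.61-fold, edgeR adjusted p = 0.0218).

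**Figure D3:**
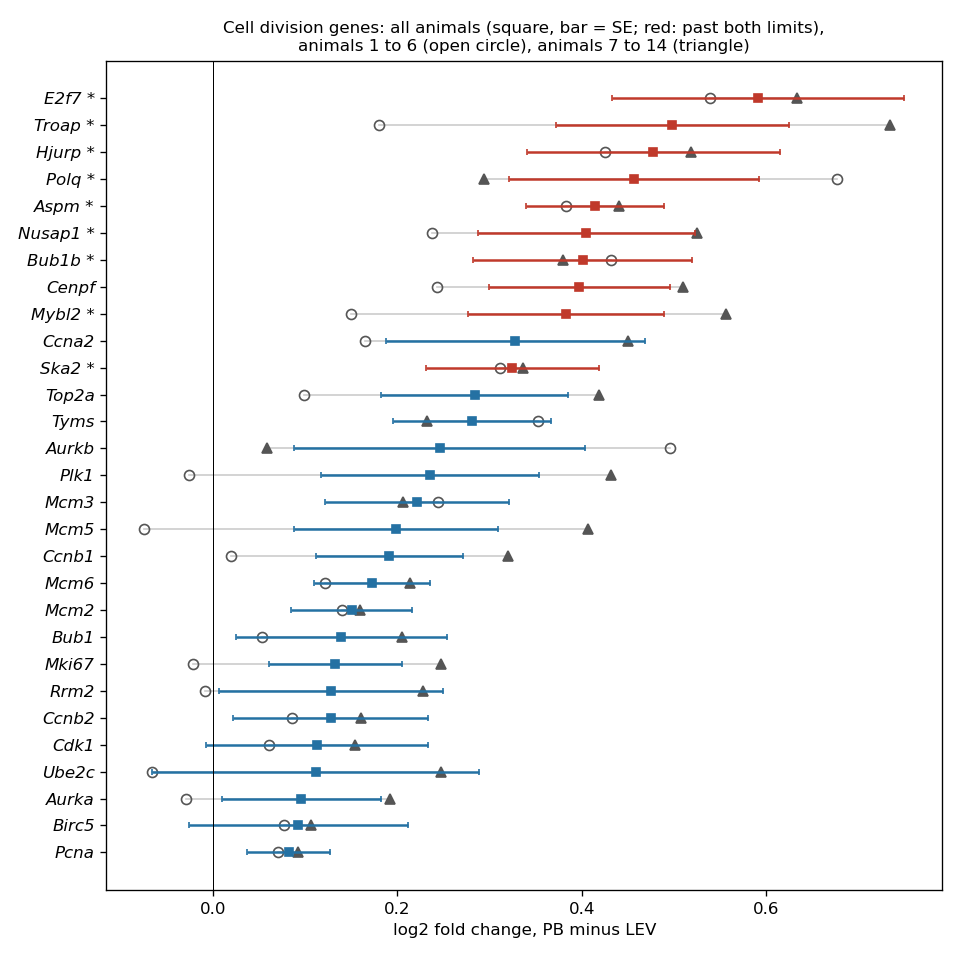
Log2 difference of PB minus LEV (horizontal axis) for the 20 proliferation genes and 9 further cell division genes marked with an asterisk, with all 28 animals as squares with bars of 1 standard error, animals 1 to 6 as open circles and animals 7 to 14 as triangles. Red squares are differentially expressed. The 9 further genes were taken from the differentially expressed transcripts that were higher after PB, so their red squares above 0 follow from that choice. All 20 proliferation genes have squares above 0, with only Cenpf in red. For 6 genes, Mki67 and Plk1 among them, the open circle is slightly below 0.

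The promoters of these genes are shown because cell division genes share short motifs that time their expression: the CHR (TTTGAA), bound by the DREAM and MYB-MuvB complexes, and the CCAAT box (CCAAT), bound by NF-Y. Promoter sequences are from RefSeq on GRCr8, 250 bases before to 50 after the start of a gene, and both strands were searched. The CHR was found in 5 of the 10 differentially expressed cell division genes (50%) and in 8 of the 16 proliferation genes with a single listed promoter (50%), against 11.1% of 9121 tested genes and 18.1% of all 24206 promoters. It was also found in 4 of 13 neuropeptide genes (30.8%), Sst and Pdyn among them, so it is not limited to genes that were higher after PB. The CCAAT box was found in 6 of the 10 (60%) and in 12 of the 16 (75%), against 37.2% of tested genes and 37.8% of all promoters. Below, the capitals mark CHR and CCAAT matches, the latter also as ATTGG on the other strand. In Aspm the CHR starts 16 bases before the listed start of the gene, in Cenpf at base 3 and in Nusap1 at base 10 of the gene. Aspm spans chr13:53625444-53625603 on the plus strand, Cenpf chr13:103760867-103761026 on the minus strand and Nusap1 chr3:127057215-127057314 on the plus strand.
Aspm: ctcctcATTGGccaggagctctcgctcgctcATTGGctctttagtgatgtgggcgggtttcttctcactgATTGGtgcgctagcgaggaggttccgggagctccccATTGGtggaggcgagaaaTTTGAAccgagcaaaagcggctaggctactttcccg
Cenpf: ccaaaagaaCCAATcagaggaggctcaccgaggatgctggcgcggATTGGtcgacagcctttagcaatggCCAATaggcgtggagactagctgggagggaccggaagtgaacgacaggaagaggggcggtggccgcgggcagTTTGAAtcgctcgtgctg
Nusap1: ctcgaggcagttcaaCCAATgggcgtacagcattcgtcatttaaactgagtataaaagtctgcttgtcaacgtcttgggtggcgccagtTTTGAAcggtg
Sst is shown as the best known gene with a cAMP response element (TGACGTCA, in capitals, the site bound by CREB), at chr11:90461446-90461565 on the plus strand, where the motif starts at base 3 counted from the start listed in the table.
Sst: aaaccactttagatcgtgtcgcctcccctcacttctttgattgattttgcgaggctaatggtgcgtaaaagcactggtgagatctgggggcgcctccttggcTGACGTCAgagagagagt
This element was found in 4 of the 13 neuropeptide genes with a single promoter (Sst, Cartpt, Scg2 and Vgf; 30.8%), against 3.23% of tested genes, and in 1 of the 10 cell division genes. Of the 4, Sst was differentially expressed, and Cartpt (-0.38, edgeR adjusted p = 0.181), Scg2 (-0.10, edgeR adjusted p = 0.175) and Vgf (-0.07, edgeR adjusted p = 0.666) did not pass. A motif match describes letters in a window and no binding was measured.

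Other lists had few members past the limits. Of 23 tested transcripts of cell death and p53 targets 0 passed both limits and 0 had an edgeR adjusted p under 0.05, with 4 at an unadjusted p under 0.05 (median 0.0070). Of 16 tested genes of drug metabolism 0 passed both limits, and 2 had an edgeR adjusted p under 0.05 (12.5% against 4.40% of all transcripts). Fmo1, a flavin monooxygenase, was higher (0.28, standard error 0.06, edgeR adjusted p = 0.0117) and Alas1, which starts haem synthesis, lower (-0.16, standard error 0.04, edgeR adjusted p = 0.0312) after PB. Of 13 markers of neocortex and thalamus 1 passed, 7.69% against 0.512% of all transcripts. It was Lamp5, which also marks a class of interneurons (-0.52, standard error 0.15, edgeR adjusted p = 0.0416). The call of Lamp5 was kept in 14 of 28 refits without a single animal. Hcrt, the orexin precursor known from the hypothalamus, differed by -0.66 (standard error 0.18, edgeR adjusted p = 0.0346), with medians of 23.7 in PB and 37.2 in LEV animals. Of 8 tested red blood cell transcripts 0 had an unadjusted p under 0.05 in edgeR.

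**Figure D4:**
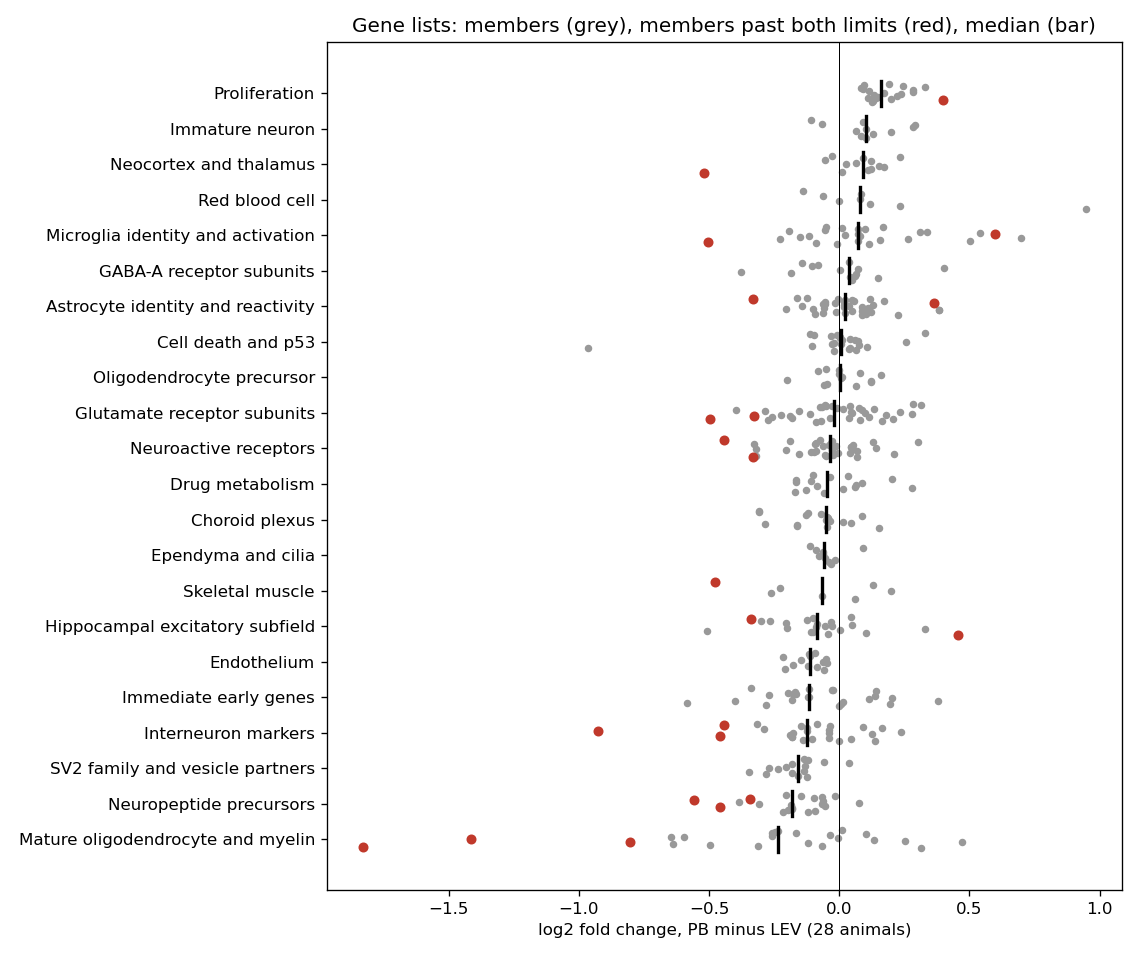
Log2 difference of PB minus LEV (horizontal axis) for each tested transcript of 22 gene lists, ordered by the list median (black bar), with differentially expressed transcripts in red. Medians run from -0.23 for mature oligodendrocytes and myelin to 0.16 for proliferation, where every member is above 0, and the SV2, neuropeptide and endothelial lists lie almost wholly below 0.

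The summed level of skeletal muscle transcripts, which do not belong to hippocampus, was lower in PB than in LEV animals. Acta1, skeletal actin, was differentially expressed (-0.48, standard error 0.12, edgeR adjusted p = 0.0209), with medians of 114 in PB and 201 in LEV among animals 1 to 6, and of 109 and 106 among animals 7 to 14. In animals 1 to 6 every LEV animal, at 177 or more, exceeded every PB animal. VEH animals 1 to 6 had a median of 193. Ckm, muscle creatine kinase, had a median of 23.5 in LEV animals 1 to 6 and of 0 in PB animals and in LEV animals 7 to 14. Of 7 tested transcripts on the muscle list 3 had a higher and 4 a lower value after PB, 1 was differentially expressed (14.3% against 0.512% of all transcripts), and the median log2 difference was -0.18 for animals 1 to 6 against -0.0081 for animals 7 to 14. The summed level of the list ran from 463 to 672 normalized counts in PB and from 526 to 1086 in LEV animals, a mean log2 difference of -0.30 (two-sided permutation test within series, p = 0.00071, Benjamini-Hochberg adjusted p = 0.0048 over 8 library measures).
With this level as a covariate 26 transcripts were differentially expressed, 15 of them among the 66. Pygm, a glycogen phosphorylase that astrocytes also express, was on the list and differed itself (-0.23, standard error 0.07, edgeR adjusted p = 0.0444), and without Pygm in the covariate 40 transcripts passed, 24 of them among the 66. Nap1l5, Tnc, Sst, Slc7a10, Rgs14, Gfap, Ndrg4, Trim67, Aspm and Cenpf passed both limits with either covariate. Opalin, Adgre1, Tac3, Entpd3 and Troap passed only with the covariate without Pygm, and Pvalb, Cd4 and Mobp with neither. With the ribosomal RNA level as a covariate 45 passed, 33 of the 66 among them, and Gfap, Rgs14, Pvalb and Cd4 were not among these. Their log2 differences with that covariate were 0.31 for Gfap (edgeR adjusted p = 0.00701) and -0.31 for Rgs14 (edgeR adjusted p = 0.0047), just under the fold limit, and -0.90 for Pvalb (edgeR adjusted p = 0.0520) and 0.57 for Cd4 (edgeR adjusted p = 0.0557), just over the limit on p.

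The 66 transcripts kept their direction in each series. All 66 had the same sign in animals 1 to 6 and in animals 7 to 14, 36 exceeded the fold limit in both and 33 had an unadjusted p under 0.05 in both (edgeR within each series). They were chosen with all these animals, so the agreement is partly built in. The series tested alone give other sets: 5 transcripts were differentially expressed in animals 1 to 6 (0.0387% of those tested there) and 54 in animals 7 to 14 (0.421%). Of the 54, 48 had the same direction in animals 1 to 6, which those calls did not use (88.9%, against 60.0% of all transcripts), 14 of them with an unadjusted p under 0.05 there, and their median log2 difference in that direction was 0.44 for animals 7 to 14 against 0.17 for animals 1 to 6. A difference between the series in the effect of the drugs was found for 0 of the 66 and for 1 of 12886 transcripts (edgeR interaction term, adjusted p under 0.05; 0.00776%).

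**Figure D5:**
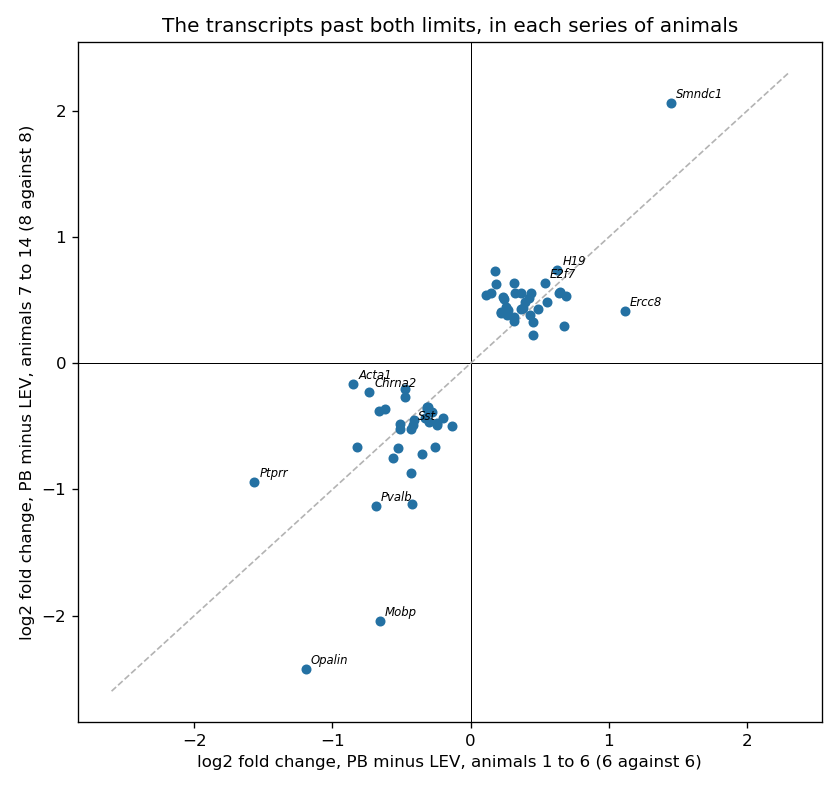
Log2 difference of PB minus LEV in animals 1 to 6 (horizontal axis) and in animals 7 to 14 (vertical axis) for the 66 differentially expressed transcripts, with the line of equal values dashed. All points lie at the lower left or the upper right of the crossing zero lines. Opalin, Mobp and Pvalb are farther from 0 in animals 7 to 14, and Acta1, Chrna2, Ercc8 and Ptprr in animals 1 to 6.

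Saline animals, which took no part in choosing the 66 transcripts, were nearer the LEV animals for most of them. The VEH mean was closer to the LEV than to the PB mean for 56 of the 66 (84.8%), for 507 of the 567 with an adjusted p under 0.05 (89.4%) and for 63.2% of all tested transcripts. Without VEH animal 1 these were 55 of the 66 (83.3%), 505 of the 567 (89.1%) and 63.0% of all. Among the 10 transcripts with the VEH mean nearer PB were Gria3, Fzd3, Slc7a2, Zbtb20, Nipal4, Gfra4, Bach2, Ptprr and Polq. For Zbtb20, for example, the mean was 369 after PB, 268 after LEV and 381 after VEH. With log2 means of the 2 series averaged, so that each series counted equally, VEH was nearer LEV for 52 of the 66. By that measure Tnc, Ifi47, Vcan and E2f7 were nearer PB, and Gfra4 was nearer LEV.
In a principal component analysis of the 28 animals with the series removed, the first component (22.4% of the variance) carried Ttr and other choroid plexus transcripts and did not part the drugs (permutation p = 0.826). The second component (7.91%), with Mobp, Mbp and Opalin at one end, had scores of -5.08 ± 11.0 for the PB group and 5.08 ± 3.93 for the LEV group (SD, n = 14 each, two-sided permutation test, p = 0.0002, adjusted p = 0.0006 over 3 components). The third, 6.47% of the variance, differed as well (permutation p = 0.0194, adjusted p = 0.0291). Without PB animal 2 the second component still parted the drugs (permutation p = 0.00035), and with the 1000 most variable transcripts alone the component with Mobp and Opalin was the third (permutation p = 0.00064). The mean distance of an animal to its group centre was 32.7 ± 4.93 (SD, n = 14) for PB and 32.3 ± 3.49 (n = 14) for LEV, a difference within the spread between animals (permutation p = 0.822).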

How the data were processed

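Hippocampal RNA of single animals was made into libraries with the NEBNext Ultra RNA kit and sequenced. Per the labels and the study's methods, the authors aligned reads with STAR 2.7.3a to rn6 and quantified RefSeq transcripts with the expectation-maximization step of Partek Flow. The deposited values are estimated counts, of which 13.7% were not whole, and these were rounded here. The same table holds the authors' own comparisons (fold changes, DESeq2 p-values, group means), which were not used. Strand use in counting is not given in the sources used here.

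The table lists 15516 transcripts of 14304 gene symbols. 830 symbols have more than 1 transcript and 420 entries share their counts with another. After edgeR's filterByExpr, 12886 transcripts were tested in the 14 PB and 14 LEV animals with R 4.3.3 and edgeR 4.0.16 (limma 3.58.1): TMM scaling, a quasi-likelihood fit with terms for series and drug, and Benjamini-Hochberg adjustment over all transcripts. Effective libraries held 9902935 to 12904171 counts, so their depth was close to equal. A normalized count is a count divided by the effective library and multiplied by their geometric mean over the 28 animals, 11244227, and the VEH animals were put on the same scale. The standard error is the log2 difference divided by the root of the F statistic. In data simulated from these animals, 195 of 200 transcripts changed 1.5-fold were called (97.5%), with 6 false calls. Smaller changes were not simulated. As 16 of the 66 differentially expressed transcripts reached 1.5-fold, this share does not give the recovery of differences nearer the 1.25-fold limit. Permutation tests of single measures were two-sided, shuffled drugs within series and drew 100000 resamples. DESeq2 1.42.0 and the other alternatives are described in the closing section.

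Among the differentially expressed transcripts, the text names the 8 of smallest adjusted p and the 3 of largest fold in each direction. It also names the differentially expressed members of the gene lists, the genes assayed in the study and the drug targets. Genes named outside this rule were chosen after their values were seen. The members of the comparison and all lists were chosen with earlier results of these data known. Levels were not compared between genes, as transcript lengths were not used. The VEH animal that the study excluded was not used here, and a few transcripts are not reported here.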

Additional observations from a re-analysis of the deposited data

Results flagged for a closer look

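The effect of the drugs differed between the series for 1 transcript, Slc1a3 NM_019225, which encodes the astrocyte glutamate transporter GLAST. The log2 difference of PB minus LEV was 0.21 for animals 1 to 6 against -0.12 for animals 7 to 14, an interaction (animals 7 to 14 minus animals 1 to 6) of -0.338 with a standard error of 0.06 (edgeR adjusted p = 0.0156). Median normalized counts of Slc1a3 were 10112 in PB, 8489 in LEV and 11516 in VEH among animals 1 to 6, and 11059, 12077 and 12173 among animals 7 to 14, so the lowest of the 6 medians was that of LEV animals 1 to 6. What moved with the series was not tested. Over all 28 animals the difference was 0.02 (edgeR adjusted p = 0.857).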

How the results depend on the processing

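None of the 66 transcripts reversed under any alternative that gave it a value, and the number called moved widely. The total (higher, lower) was 26 (14, 12) without the series term, 5 (1, 4) in animals 1 to 6 alone, 0 (0, 0) with glmTreat, 567 (211, 356) without the fold limit and 16 (7, 9) at 1.5-fold. It was 26 (12, 14) with the skeletal muscle covariate, 40 (20, 20) with that covariate without Pygm and 45 with the ribosomal RNA covariate, which left 17 lower. The last pair were added after the data were seen, as were the removal of ribosomal RNA and the omission of PB animal 2 from the distances and components and of VEH animal 1 from the VEH levels. DESeq2 called 63 by default, with 43 of the 66 among them and 43 of 43 with an adjusted p kept. The rest of the 66 were given no adjusted p by default, Opalin, Pvalb, Cd4, Plek, E2f7 and Smndc1 among them. Without outlier handling or filtering DESeq2 called 93 (52 higher), with 65 of the 66. Of the other settings, size factors of DESeq2, no low-count filter, a mean of at least 50 counts, a series-by-drug term, robust dispersion, all 3 groups in 1 model, a choroid plexus covariate, counts summed per symbol, ribosomal RNA removed, and DESeq2 after subtraction of series effects gave 56 to 81. Leaving out 1 animal at a time gave 31 to 95 in total, 14 to 54 higher and 17 to 46 lower. The total was under the main one by more than 1.5 times without PB 7 (31), PB 11 (43), LEV 2 (41) or LEV 12 (43).

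With the animal number as a replicate block 39 were called (18 higher, 21 lower), 36 of them among the 66. The labels do not say that a number pairs animals, and residual correlations of same-numbered animals ran from -0.37 to 0.27, with 4 of 14 over 0.1 and 0 of 14 animals closest to their own number. Without a low-count filter 2 transcripts passed the interaction test in place of 1.

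The difference in distance to the group centre, 0.38, was -0.155 with the 1000 most variable transcripts, -0.0355 with the series kept and -0.818 without PB 2, always within the spread between animals. Vegfa transcripts, which did not pass, changed sign: NM_001110334 and NM_001287110 to -0.00107 and NR_105011 to 0.164 in animals 7 to 14, NM_001110336 to -0.0712 in animals 1 to 6 and -0.0139 with the ribosomal RNA covariate. NM_001287107 and NM_031836, with the same counts, went to -0.465 in animals 1 to 6, -0.006885 without the series term, -0.008899 after subtraction of the series effects, -0.0567 with the muscle covariate and -0.002336 with it without Pygm. Leaving out 1 animal at a time, NR_105011 ran from -0.283 to 0.0284, NM_001110336 from -0.00768 to 0.0426 and the pair NM_001287107 and NM_031836 from -0.0401 to 0.132. The causes were not tested.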
